A study of Homo sapiens with 34 samples.

Results

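*CRY1* and *CRY2*, which encode the cryptochromes, were 2 of 28690 loci measured by RNA-seq in U2OS cells and were found there by gene symbol. U2OS is a human osteosarcoma line, and the line used here carried a stable *Bmal1*:*luc* luciferase reporter in every group. The cultures for RNA had a dexamethasone shock to set their clocks, and all cultures were kept in 5 mM 6-aminonicotinamide (6AN), an inhibitor of the pentose phosphate pathway, or in the same amount of its solvent DMSO (control). RNA was sequenced at 12 time points 4 hr apart, labelled 0 to 44 hr, with 1 library per time point and condition (24 libraries), and chromatin was taken after 24 hr for ChIP-seq of BMAL1, CLOCK, H3K9ac, and H3K4me3 and for an input, with 1 library per antibody and condition (10 libraries). Of the BMAL1/CLOCK sites shared by both factors, 3 of 439 in 6AN and 2 of 147 in control were named after a cryptochrome.

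Cryptochromes are the core repressors of the mammalian clock. BMAL1 and CLOCK bind E-box sequences and activate the *PER* and *CRY* genes, the PER and CRY proteins form complexes that enter the nucleus, and CRY then blocks the activator pair until it is degraded. *CRY1* is also controlled by the REV-ERB and ROR receptors and by D-box factors, and in many tissues its transcript peaks later than those of the *PER* genes.

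Both cryptochromes were expressed. *CRY1* lies on chromosome 12 (hg38, chr12:106991365-107093857), with 1 annotated start site, and its FPKM (fragments per kilobase of transcript scaled to the depth of the library, a level per length) averaged 10.9 over the 24 libraries. *CRY2* lies on chromosome 11 (chr11:45847118-45883248), with 2 start sites, and averaged 7.38 FPKM. No other RefSeq gene overlapped either locus. The relative depth of the libraries ranged from 0.581 to 1.31 within the control table and from 0.697 to 1.55 within the 6AN table, and the absolute depth is unknown. Of 9 osteoblast markers, 6 reached a mean of 0.7 FPKM, among them *RUNX2* and *BGLAP*, whose locus is merged with *PMF1*, while *SP7*, *COL1A2*, and *IBSP* did not. The epithelial marker *EPCAM* averaged 1.02 FPKM in control and 0.734 in 6AN. Epithelial markers summed to at most 1.74 FPKM and endothelial markers to at most 1.58 in any library, and the leukocyte markers *PTPRC* and *CD3E* summed to at most 0.446 FPKM in any library.

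*CRY1* swung in opposite directions in the 2 conditions. In control, its level fell from 10.6 FPKM at 4 hr to 6.55 at 16 hr, rose to 10.9 at 24 hr, and fell again to 7.77 at 40 hr. In 6AN, it rose from 8.12 FPKM at 0 hr to 15.9 at 12 and 16 hr, fell to 8.34 at 28 hr, and rose to 15.96 at 36 hr. The 12 control values had a median of 9.06 FPKM and the 12 values of 6AN a median of 14.4 FPKM. Control was therefore near its lowest at the hours when 6AN was near its highest, and the ranges overlapped because the troughs in 6AN lay within the range of control. The highest value was 1.67 times the lowest in control and 1.97 times in 6AN.

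*CRY2* moved less in control. Its control level lay between 4.56 FPKM at 12 hr and 7.41 at 28 hr, with a median of 5.42, and the value at 28 hr stood above its neighbors of 4.78 at 24 hr and 5.19 at 32 hr. In 6AN, *CRY2* stood at 12.5 FPKM at 8 hr, 5.75 at 24 hr, and 11.1 at 36 hr, with a median of 9.13. The crest in 6AN came at 8 to 12 hr in the first cycle, and the highest value of the second cycle fell at 36 hr for both genes. *CRY1* in 6AN then stayed at 14.5 FPKM at 40 hr and 15.1 at 44 hr, where the series ended. *CRY2* fell to 9.16 and 8.68 at those times.

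**Figure D1:**
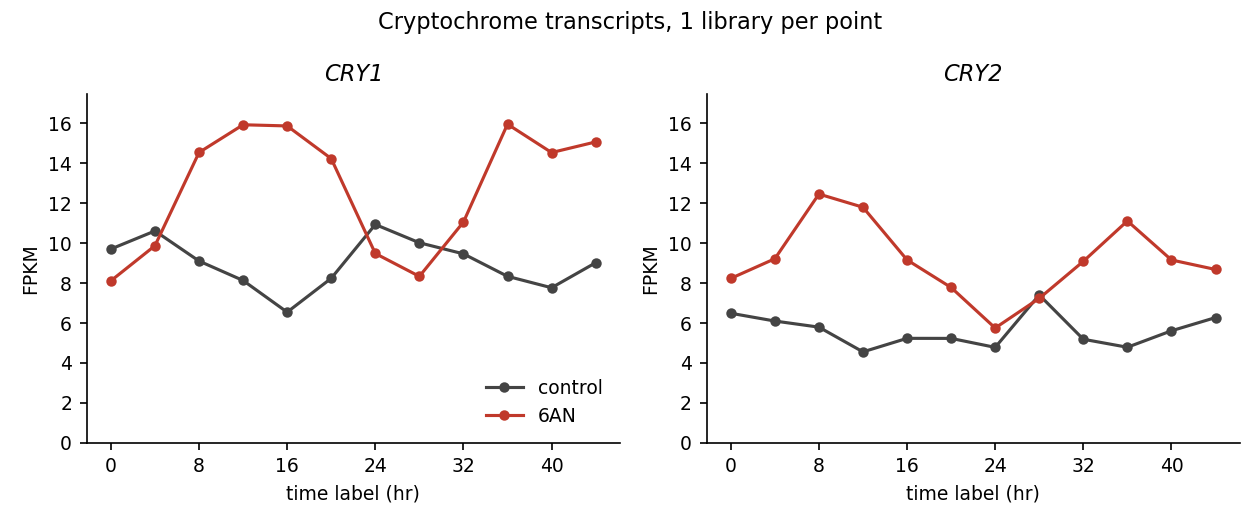
Levels of *CRY1* (left) and *CRY2* (right) in FPKM against the time label in hr, with 1 library per point, for control (gray) and 6AN (red). *CRY1* in 6AN reached 15.96 FPKM at 36 hr while control stood at 8.34, and the lines crossed at 4 to 8 hr, 20 to 24 hr, and 28 to 32 hr, whereas *CRY2* in 6AN lay above control at every time point but 28 hr.

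The difference between the rhythms of *CRY1* was tested directly. A 24 hr cosine with a linear trend was fitted to log2(FPKM + 1) in each condition. A separate intercept per condition takes up scaling between the separately normalized tables, apart from what the pseudocount of 1 leaves. The cosine terms of the 2 conditions were compared across all 14678 expressed loci with limma. The cosine terms of *CRY1* differed between 6AN and control (F = 33.6, adjusted p = 0.00289). Only 11 loci passed (0.0749% of those tested), while 869 had an unadjusted p under 0.05. The fitted amplitude of *CRY1* was 0.25 in control (jackknife SE 0.062) and 0.43 in 6AN (SE 0.061) on the log2 scale, so that the fitted peak was 1.42 times the trough in control and 1.82 times in 6AN. The fitted peak was at 3.14 hr in control (SE 0.402) and 14.4 hr in 6AN (SE 0.877). That is 11.3 hr later (SE 1.02), or equally 12.7 hr earlier, on a 24 hr clock. The same period was fitted in both conditions. The paper reports that the inhibitor lengthened the period of the rhythms. Unequal periods were not fitted. They would enter both the test and the shift in fitted peak, and the SE does not cover them. The call held when each time point was left out in turn, with adjusted p from 0.00195 to 0.0356. The residuals of this fit stand in for replicates, since there was 1 library per point.

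For *CRY2*, the same test did not pass (F = 11.8, adjusted p = 0.211, unadjusted p = 0.000517). Its fitted amplitude was 0.15 in control (SE 0.099) and 0.32 in 6AN (SE 0.089), and its fitted peak was at 1.95 hr in control (SE 2.04) and 11.9 hr in 6AN (SE 0.844). The control phase was thus poorly determined, and the missed threshold does not show that the rhythms of *CRY2* were alike.

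Within each condition, a rank test for a rise and a fall over the 24 hr cycle (umbrella test) was read at p of at most 0.01. *CRY1* passed in control (exact p = 0.000909) and in 6AN (exact p = 0.00331), where 0.831% and 0.797% of expressed loci passed. Neither share was above what the threshold alone lets pass. The paper used another test, RAIN, at the same threshold, and *CRY1* is not among the clock genes it names as rhythmic in both conditions. None of the genes it names (*NR1D1*, *NR1D2*, *TEF*, *DBP*, *ARNTL*, and *PER3*) passed the umbrella test in both. *CRY2* did not pass in control (exact p = 0.126) or in 6AN (exact p = 0.0329). After Benjamini-Hochberg adjustment none of the 14678 loci was called in either condition, with 737 and 624 at an unadjusted p under 0.05, and the adjusted p of *CRY1* was 0.741 in control and 1 in 6AN. Without the library at 12 hr or at 36 hr, *CRY1* in 6AN had an exact p of 0.0132, above the threshold, and without that at 32 hr *CRY2* in 6AN had an exact p of 0.00329, below it. Removing a linear trend before ranking took *CRY1* above the threshold in both conditions (exact p = 0.0144 in control and 0.0496 in 6AN). The moderated F test of the cosine in limma called *CRY1* in 6AN (adjusted p = 0.0113, amid 8 loci or 0.0545%) and not in control (adjusted p = 0.423, amid 5 loci or 0.0341%), and called *CRY2* in neither (adjusted p = 0.798 and 0.181).

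Neither gene had a linear trend over the 44 hr that passed. The slope of *CRY1* was 0.07 log2 units per 24 hr in control (SE 0.073, limma adjusted p = 0.659) and -0.01 in 6AN (adjusted p = 0.940), and that of *CRY2* was 0.04 in control (SE 0.087, adjusted p = 0.852) and -0.15 in 6AN (adjusted p = 0.242). Among all expressed loci, 7.17% had such a trend in control and 25.1% in 6AN.

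The levels of both genes were on average higher in 6AN, as read from tables that were normalized separately, and the levels were therefore not tested. *CRY1* averaged 12.8 ± 3.12 FPKM in 6AN and 8.99 ± 1.26 in control (SD over 12 time points). *CRY1* was higher in 6AN at 8 of 12 time points, and 34.8% of expressed loci were higher at 8 or more. It was lower at 0, 4, 24, and 28 hr, by ratios of 0.832 to 0.930, and 2.43 times higher at 16 hr. *CRY2* averaged 9.14 ± 1.91 FPKM in 6AN and 5.62 ± 0.834 in control, and was higher at 11 of 12 time points, as were at least that many for 18.3% of loci. Its ratio ran from 0.977 at 28 hr to 2.59 at 12 hr. The mean log2 difference between 6AN and control was 0.43 for *CRY1* (jackknife SE 0.15) and 0.60 for *CRY2* (SE 0.10), against a median of -0.037 over all expressed loci, and 9.74% and 5.11% of the loci had a larger mean difference. With the libraries of both tables rescaled together by their median ratio, it was 0.49 for *CRY1* and 0.65 for *CRY2*. The summed osteoblast markers ranged from 428 to 581 FPKM in control and from 140 to 313 FPKM in 6AN. Most of the sum was *SPARC* (323 FPKM in control and 129 in 6AN on average) and *COL1A1* (128 and 33.9). *ALPL* was also lower in 6AN (6.41 and 3.73), *RUNX2* (13.99 and 13.90) and the *BGLAP* locus (23.1 and 22.8) differed little, and *SPP1* was higher (2.07 and 4.00). The part of these markers in the levels of the cryptochromes was not tested. In a bulk culture, more transcript per cell and more cells that hold it cannot be told apart.

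A plain FPKM ratio of the 2 genes within a library does not depend on the scaling of the tables. The ratio of *CRY2* to *CRY1* in FPKM ran from 0.437 at 24 hr to 0.7996 at 16 hr in control, with a median of 0.636, and from 0.547 at 20 hr to 1.01 at 0 hr in 6AN, with a median of 0.719. In 6AN, it was lower at each successive time point from 0 to 20 hr, stood at 0.868 at 28 hr, and was again lower at each later time point down to 0.576 at 44 hr, while in control it had no such run. On the log2(FPKM + 1) scale, the ratio was higher in 6AN at 8 of 12 time points, by 0.17 on average (SE 0.10), and the exact two-sided sign-flip permutation test over time points did not pass (p = 0.139, with 0.000488 the smallest it can give). This test treats time points as independent, while differences of the same sign came in runs of neighboring time points. Without the time point at 16 hr, the difference was 0.22 and the exact p was 0.0459. The pseudocount of 1 in this test leaves some dependence on the scaling. With a pseudocount of 0.1 and all time points, the difference was 0.21 and the exact p of the sign-flip test was 0.0967. By the fits, *CRY1* peaked 2.57 hr after *CRY2* in 6AN (SE 0.819) and 1.19 hr after it in control (SE 2.19).

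**Figure D2:**
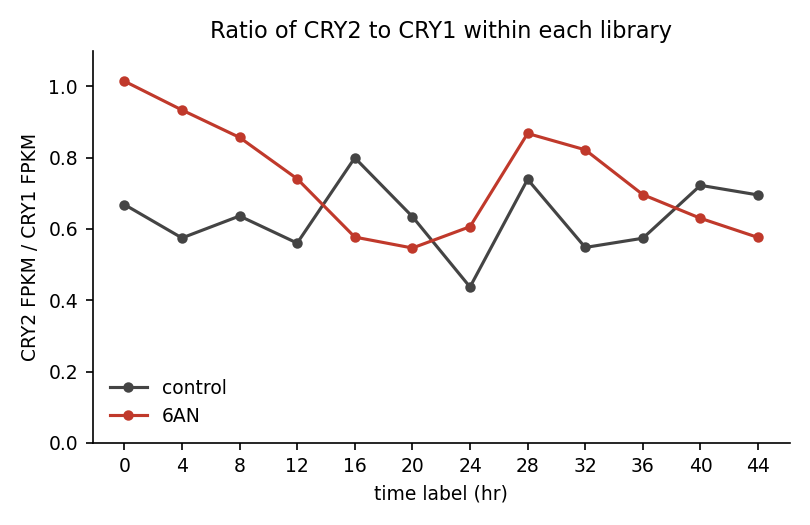
Ratio of *CRY2* FPKM to *CRY1* FPKM within each library against the time label in hr, for control (gray) and 6AN (red). The ratio in 6AN went from 1.01 at 0 hr to 0.547 at 20 hr and from 0.868 at 28 hr to 0.576 at 44 hr.

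The other genes of the cryptochrome pathway placed these rhythms in order. A list of 30 genes, grouped by their role toward CRY, had 26 expressed members, of which 6 showed a rhythm difference by the limma test, where 0.0749% of all expressed loci did, and 12 had an unadjusted p under 0.05, as had 869 of 14678 loci. The list was drawn up with earlier results of these data known, so its counts are no independent support. Those called were *PER3*, a partner of CRY in the repressor complex (adjusted p = 0.000101); *ARNTL*, which encodes the activator BMAL1 (adjusted p = 0.000201); the D-box activators *DBP* and *TEF* (adjusted p = 0.00295 for each); and the REV-ERB repressors *NR1D1* and *NR1D2* (adjusted p = 0.0338 and 0.00787). None of 5 expressed ubiquitin ligase and deubiquitinase genes and none of 6 kinase genes was called by limma, with 0 at an unadjusted p under 0.05 in both groups.

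The fitted peaks of the 6 genes and both cryptochromes followed the same cyclic order in both conditions. In control the order ran from *NR1D1* at 19.1 hr through *NR1D2* (22.2 hr), *DBP* (23.7 hr), *TEF* (24.0 hr), *PER3* (0.786 hr), *CRY2* (1.95 hr), and *CRY1* (3.14 hr) to *ARNTL* (11.6 hr). In 6AN it ran from *NR1D1* at 4.82 hr through *NR1D2* (6.78 hr), *DBP* (8.51 hr), *TEF* (8.86 hr), *PER3* (11.3 hr), *CRY2* (11.9 hr), and *CRY1* (14.4 hr) to *ARNTL* (21.99 hr). *DBP* and *TEF* did not differ beyond their SE, nor did *PER3* and *CRY2*, nor *CRY2* and *CRY1* in control. Among uncalled genes of the list with an unadjusted limma p under 0.05, *NPAS2*, *NFIL3*, and *BHLHE40* kept their places in this order. The others did not. *PER1* went from before *NR1D2* (21.6 hr, SE 1.18) to after *DBP* (8.58 hr, SE 1.89). *PER2* went from after *PER3* (1.55 hr, SE 1.80) to before it (10.6 hr, SE 1.48). *BHLHE41* went from after *CRY1* (3.68 hr, SE 0.564) to before *DBP* (8.14 hr, SE 1.97). *CRY1* trailed *PER3* by 2.36 hr in control (jackknife SE 0.510) and 3.12 hr in 6AN (SE 0.809). It trailed *NR1D1*, whose product represses *CRY1*, by 8.07 hr in control (SE 0.828) and 9.60 hr in 6AN (SE 1.13). Behind *DBP*, whose product activates D-box genes, it came by 3.47 hr (SE 0.515) and 5.92 hr (SE 1.09). The differences between these lags were not tested, and a period other than the fitted 24 hr would enter them.

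**Figure D3:**
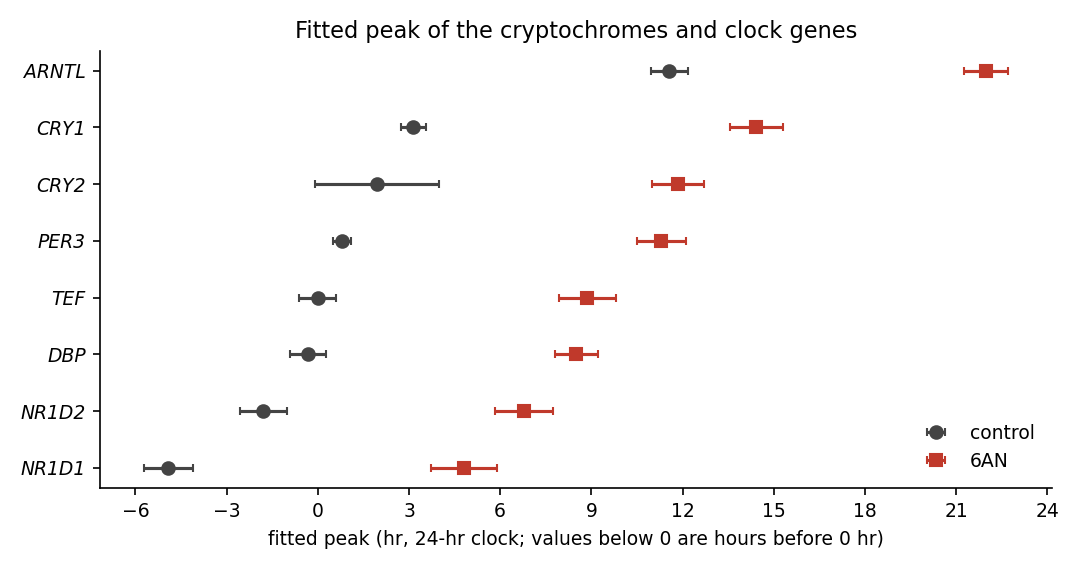
Fitted peak hour on a 24 hr clock, with jackknife SE over 12 time points as bars, for *CRY1*, *CRY2*, and the 6 pathway genes with a rhythm difference, in control (gray circles) and 6AN (red squares). Control peaks before 0 hr are drawn as negative hours; *CRY1* lies at 3.14 hr in control and 14.4 hr in 6AN, between *CRY2* and *ARNTL* in both.

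Levels of the pathway genes went both ways. Of 26 expressed members, 14 were higher in 6AN at 8 or more of 12 time points, as were 34.8% of expressed loci, and the median of their mean log2 differences was 0.12, beside -0.037 over all expressed loci. Higher at all 12 time points, as were 12.6% of expressed loci, were 7 genes: *PER1*, a partner in repression (15.3 FPKM in control and 31.4 in 6AN on average); the casein kinases *CSNK1D* and *CSNK1E*, which phosphorylate PER proteins; *DYRK1A*, a kinase of CRY2; and *RORA*, *NFIL3*, and *BHLHE40*, which encode transcription factors. The locus of *CSNK1E* also holds *LOC400927*. Lower at all 12 time points, as were 19.8% of loci, were 6 genes: *CLOCK*, *NPAS2*, the ubiquitin ligase genes *DDB1* and *DTL*, *PRKAA1*, a subunit of AMPK, and *BHLHE41*. *BHLHE41*, a repressor that competes for E-boxes, averaged 28.5 FPKM in control and 6.42 in 6AN. *FBXL21*, *CIART*, and *HLF* lay below 0.7 FPKM, with *FBXL21* listed at 0 in all libraries, and *FBXL21P* was not matched.

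Trends over time by limma were called for 4 of the 26 genes in control, where 7.17% of expressed loci had one, and for 4 of the 26 in 6AN, where 25.1% had one. In control, *RORA*, *DBP*, and *BHLHE41* rose (adjusted p = 0.0132, 0.000768, and 0.0129) and *BHLHE40* fell (adjusted p = 0.00199). In 6AN, *PRKAA1* rose (adjusted p = 0.0319), and *TIMELESS*, *DTL*, and *BHLHE41* fell (adjusted p = 2.34e-05, 0.00304, and 0.00142).

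The time courses most like those of the cryptochromes were found among the other 14677 expressed loci by the mean of the Pearson coefficients over 12 time points in each condition, after a linear trend was removed. For *CRY1*, they were *ZSCAN31* (0.80), *CIPC* (0.79), *BLOC1S3* (0.78), *KIF20A* (0.72), and *PER3* (0.72). *CIPC* encodes a CLOCK-interacting repressor. *ZSCAN31*, a zinc finger gene, also showed a rhythm difference by limma (adjusted p = 0.0418), with a fitted peak at 3.49 hr in control and 14.5 hr in 6AN, close to those of *CRY1*. For *CRY2*, they were *PER2* (0.79), *SLC46A3* (0.75), *BMP6* (0.75), *PER3* (0.73), and *RECQL4* (0.72). *CRY1* and *CRY2* resembled each other with a coefficient of 0.35 in control and 0.73 in 6AN. All of these are descriptions over time points that share a library across genes.

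BMAL1 and CLOCK occupied 3 sites at the cryptochrome genes. The *CRY1* promoter site was at chr12:107093395-107094395, with its center 38 bp upstream of the start site; the *CRY2* promoter site was at chr11:45846788-45847788, with its center 118 bp upstream; and the *CRY2* intron site was at chr11:45859364-45860364, in intron 3 of 11 and 12458 bp downstream of the start. In the merged list of 4001 peak intervals, each of the 3 held peaks from all 4 BMAL1 and CLOCK libraries, as did 120 intervals (2.999%). The *CRY1* promoter thus had peaks of both factors in control as well, although it was absent from the shared list of control. By peak score, the *CRY2* promoter ranked 14 and the *CRY2* intron 25, and the *CRY1* promoter ranked 234.

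Sequence at both promoters held the same E-box variant, CACGTT, within the merged peak interval. The RefSeq windows from 250 bases before to 50 bases after each start (GRCh38.p14, read on the gene's strand, of which both *CRY2* windows and the *CRY1* window matched) were searched on both strands for the E-box (CACGTG), for its variant, for the core of the REV-ERB and ROR element (AGGTCA), and for the D-box (TTATGNAA). The windows covered 202 bases of the *CRY1* peak interval and 172 bases of the *CRY2* promoter interval, and the rest of each interval was not searched. The runs are shown because they hold the E-box variant found in the searched part of the intervals, with its reverse complement (AACGTG) in capitals.
*CRY1*, chr12:107093621-107093650, minus strand: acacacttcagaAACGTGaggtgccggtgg
*CRY2*, chr11:45847275-45847304, plus strand: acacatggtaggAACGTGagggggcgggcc
The motif began 89 bases upstream of the *CRY1* RefSeq start and 188 bases upstream of the second *CRY2* RefSeq start, downstream of the first. These RefSeq starts are not the starts from which the site centers above were measured. The *CRY1* site was measured from the locus end at 107093857, and the motif lies downstream of that start, inside the locus. At *CRY2*, the motif lies upstream of the start used for the site. It lay 4.5 bp from the center of the *CRY2* peak interval and 162.5 bp from that of the *CRY1* interval, which was wider (401 bp against 223 bp). Both runs share the stretch AACGTGAGG, which was noticed after the sequences were read and which 0.120% of 35116 windows hold. CACGTT was in 5.34% of all windows. No CACGTG was found in the windows of either gene, against 7.26% of all windows, and no TTATGNAA, against 3.30%. AGGTCA was found in both *CRY2* windows, outside the peak interval, and not in that of *CRY1*, against 13.8% of all windows. These matches describe the letters only.

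CLOCK signal at all 3 sites was higher in 6AN at the single time when chromatin was taken. The fitted peaks of *CRY1* and of the called pathway genes lay at other hours in 6AN than in control. Whether a difference in ChIP signal is one of phase or of level was not tested. Signal is the number of tags in 1000 bp scaled to 10000000 tags per library, and the intervals below are exact 95% Poisson intervals that cover counting error only. At the *CRY1* promoter, CLOCK signal was 40.45 in control (23.3 to 65.2, from 16.5 tags) and 132 in 6AN (101 to 170, from 60 tags), a log2 change of 1.68. At the *CRY2* promoter, it was 114 in control (83.6 to 152) and 296 in 6AN (248 to 350), a log2 change of 1.37. At the *CRY2* intron, it was 83.4 in control (57.7 to 116) and 181 in 6AN (144 to 225), a log2 change of 1.11. The intervals of 6AN and control did not overlap at any of the 3 sites. These sites and the 439 they are set beside were called as shared peaks in 6AN, a choice that favors higher signal in 6AN. The *CRY1* promoter was on that list only. At the coordinates of the control list, the CLOCK log2 change was 1.39 at the *CRY2* promoter and 1.11 at the *CRY2* intron. CLOCK signal was at least 2-fold higher in 6AN at all 3 sites, and at 59.7% of the 439 sites, where the median log2 change was 1.104. The change at the *CRY1* promoter ranked 72 of 439, that at the *CRY2* promoter 145, and that at the *CRY2* intron 219.

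BMAL1 signal changed less than its counting error at these sites. At the *CRY1* promoter, it was 33.5 in control (21.7 to 49.5) and 44.96 in 6AN (31.4 to 62.4). At the *CRY2* promoter, it was 89.8 (69.6 to 114) and 103 (82.0 to 128), and at the *CRY2* intron 64.3 (47.4 to 85.3) and 62.05 (45.9 to 82.0). The log2 change was 0.41, 0.20, and -0.051 in that order. None of the 3 reached a 2-fold rise, which 15.5% of the 439 sites did. The *CRY2* promoter was among the 20 sites with the most BMAL1 signal in both conditions, ranking 15 in control and 20 in 6AN, and ranked 17 and 13 for CLOCK. With 1 library per antibody and condition, these differences are between libraries, and those between cultures were not measured.

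The input was also higher in 6AN at the same sites, at 8.11 in control and 13.5 in 6AN at the *CRY1* promoter, 9.02 and 11.9 at the *CRY2* promoter, and 4.51 and 7.25 at the *CRY2* intron, with overlapping counting intervals. After the log2 change of the input was subtracted, the CLOCK change lay between 0.53 at the *CRY2* intron and 1.01 at the *CRY1* promoter. The subtraction was not made for the other sites, so these values cannot be set beside the median of the list given above. The BMAL1 change became -0.25 at the *CRY1* promoter and -0.17 at the *CRY2* promoter, both positive before, and -0.63 at the *CRY2* intron.

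Histone marks at the 2 promoters showed no change beyond counting error. H3K4me3 was 155 in control (115 to 204) and 138 in 6AN (106 to 176) at the *CRY1* promoter, and 153 (113 to 202) and 175 (139 to 218) at the *CRY2* promoter. The promoter sites of the list had a median of 282 in control and 273 in 6AN. H3K9ac was 39.0 in control (13.5 to 87.7, from 5.5 tags) and 42.55 in 6AN (25.99 to 65.7) at the *CRY1* promoter, and 70.9 (34.0 to 130) and 69.15 (47.4 to 97.4) at the *CRY2* promoter, below the promoter medians of 121 and 128. The *CRY2* intron site had 2 and 1 tags of H3K4me3 and 3 and 6 tags of H3K9ac in control and 6AN. The H3K9ac library of control held 1409550.5 tags and the others between 3203238.5 and 33273105.5, so that a change in this mark was hardly detectable at this depth.

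**Figure D4:**
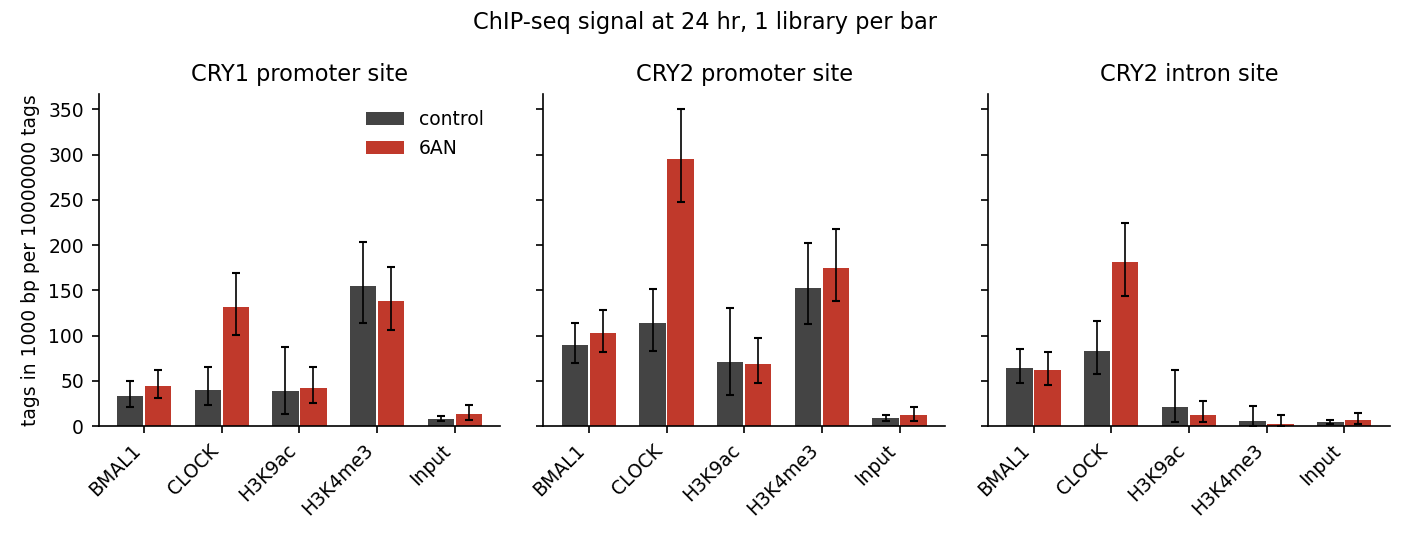
ChIP-seq signal (tags in 1000 bp per 10000000 tags) at the 3 cryptochrome sites for BMAL1, CLOCK, H3K9ac, H3K4me3, and input, with 1 library per bar and exact 95% Poisson intervals, in control (gray) and 6AN (red). CLOCK signal was higher in 6AN at each site, for example 296 against 114 at the *CRY2* promoter, while the intervals of the other libraries overlapped.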

How the data were processed

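RNA-seq and ChIP-seq libraries of *Bmal1*:*luc* U2OS cells were grouped by the labels. The submitters' processing notes name Bowtie, TopHat, Cufflinks, Bowtie2, HOMER, and hg38. The authors deposited FPKM per locus in 2 tables, each normalized across its own 12 libraries. The signal at shared BMAL1/CLOCK sites was deposited by the authors as HOMER tags scaled to 10000000 per library, and the merged peaks with the HOMER peak score. The locus tables were used for names and positions. All per-sample columns were used.

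The 2 members and the gene lists were chosen with earlier results of these data known. Expressed loci had a mean of at least 0.7 FPKM. A pseudocount of 1 was added before log2. Rhythms were tested with an exact umbrella rank test (6 phases, 18 shapes, all rank arrangements) and with limma 3.58.1 in R 4.3.3 (24 hr cosine, sine, and linear time per condition, Benjamini-Hochberg over all loci). The p-values of limma, of the umbrella test, and of the sign-flip test treat time points as independent. Peak and amplitude errors are jackknife SE over time points at a fixed period. Alternatives were a pseudocount of 0.1 (5 for signal), no filter, a 26 hr period, no trend, rescaled libraries, first and last 6 time points, no pairing by time point, input subtraction, and each time point left out. The named genes were the members, the listed genes, and the 5 loci most like each member. Not every listed gene is reported here. RNA was extracted in triplicate by the methods, and how the extracts entered a library is not given in the sources used here. RefSeq windows were on GRCh38.p14. The tests were checked on simulated data. Other values came from Python 3.11.15 (SciPy 1.17.1).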

Additional observations from a re-analysis of the deposited data

Results flagged for a closer look

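The rhythm of *CRY1* differed between 6AN and control in the test of the difference itself (limma, moderated F on the cosine and sine terms, adjusted p = 0.00289), with a fitted peak at 3.14 hr in control and 14.4 hr in 6AN. It was 1 of 11 loci called among 14678. The same period was fitted in both conditions, and a difference in period would enter this test and the fitted peaks. The 12 libraries of a condition are 12 time points without replicates, and no test for single outlying samples was applied.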

How the results depend on the processing

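Of 224 alternative values for 20 results, 200 were counted as unchanged. Tested values had to stay on their side of the threshold, and slopes also had to keep their sign. Values without a test had to move by less than their error, and the number of loci had to stay within a fixed fold range. The 200 include 2 changes of sign, since subtracting the input took the BMAL1 change to -0.25 at the *CRY1* promoter and -0.17 at the *CRY2* promoter. The rhythm difference of *CRY1* passed under all 16 alternatives (limma adjusted p from 0.000319 to 0.0356), and that of *CRY2* under none (0.116 to 0.696). The number of loci with a rhythm difference was 11, and 7 without a filter on low FPKM, at a period of 26 hr, or without a linear trend, and 6 to 13 with each time point left out. For the umbrella test, removing a linear trend gave *CRY1* an exact p of 0.0144 in control and 0.0496 in 6AN, and leaving out time points gave *CRY1* in 6AN 0.00217 to 0.0132 and *CRY2* in 6AN 0.00329 to 0.117; the harmonic test gave *CRY2* in 6AN an unadjusted p of 0.000467 (limma). Slopes fitted as linear time alone changed sign, to -0.053 log2 per 24 hr for *CRY1* in control, 0.19 for *CRY1* in 6AN, and -0.022 for *CRY2* in control, and with time points left out ranged from -0.099 to 0.035 for *CRY1* in 6AN and from -0.015 to 0.081 for *CRY2* in control, none of them called. The difference in the ratio of *CRY2* to *CRY1* ranged from 0.13 to 0.22 with time points left out. The cause of these changes was not tested. Levels moved by less than their errors, and site signals by less than their counting error, although subtracting the input took the CLOCK change at the *CRY2* intron from 1.11 to 0.53.

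With 1 library per point, the spread between cultures was not measured, FPKM depth is unknown, and few tags limit the histone marks. Chromatin was taken at a single time, so phase and level were not told apart in the ChIP signal. The labels give time points and no replicate numbers, and the ratio test paired libraries by time point. Without that pairing its permutation p was 0.107.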
